A study of Mus musculus with 5 samples.

Results

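The BAF and NuRD complexes are assemblies of proteins that use ATP to move or evict nucleosomes. Their transcripts were read here in mouse E14 embryonic stem cells. The set holds 34 named genes out of 22267 with a symbol in the deposited table, 21 of BAF and its PBAF and non-canonical forms and 13 of NuRD and the related CHD family. Members were taken by symbol, from complex membership and not by their measured values, though earlier results of these data were known. Of the 34 genes, 33 were matched to transcripts, and Chd7, a CHD remodeller outside NuRD, is not analysed here.

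The series has 5 RNA libraries, 1 for each of 5 groups, all from E14 cells whose strain the labels give as C57BL/6. Normal cells were sampled in culture with leukemia inhibitory factor (LIF), the cytokine that keeps mouse embryonic stem cells undifferentiated, and after 24 hours without LIF followed by LIF again. Cells labelled as overexpressing hexokinase 2 (Hk2) and pyruvate kinase M2 (Pkm2), called labelled cells from here on, were sampled under the same 2 conditions and also after 40 days without LIF. The sources used here do not say how the genes were introduced or whether the labelled cells are 1 clone.

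BAF is built around 1 of 2 exchangeable ATPases, Smarca4 (BRG1) or Smarca2 (BRM), held by a core of Smarcc, Smarcd, Smarcb1 and Smarce1 proteins. Accessory subunits decide which form is made: ARID1 and DPF proteins mark canonical BAF, while Arid2, Pbrm1, Phf10 and Brd7 mark PBAF and Brd9 the non-canonical form. Mouse embryonic stem cells are known for a form rich in Smarca4 and Smarcc1 and poor in Smarca2 and Smarcc2, and neurons for one with Actl6b, Dpf1 or Dpf3. NuRD joins a CHD ATPase to histone deacetylases (Hdac1, Hdac2) through MTA scaffolds, MBD proteins and GATAD2 bridges. Mbd3, unlike Mbd2, does not bind methylated DNA with high affinity, and the NuRD complex that holds it is known for its part in letting embryonic stem cells leave pluripotency.

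Between 10151 and 11114 transcripts per library reached 1 FPKM, the count of fragments scaled by transcript length and by the mapped fragments of the library. From the spacing of the lowest values, 1 FPKM stood for about 38.5 to 44.2 fragments per kilobase. Hk2 was at 76.2 FPKM in normal and 98.6 FPKM in labelled cells with LIF and at 49.7 and 59.0 FPKM after 24 hours, but at 29.0 FPKM, the lowest of the 5, in labelled cells at 40 days. Pkm was at 509.8 and 567 FPKM with LIF, 611 and 564 FPKM after 24 hours and 495 FPKM at 40 days, so the libraries are named by their labels only. The Y-linked Ddx3y was at 11.8 FPKM in both normal libraries and at 0.0225, 0.013 and 1.79 FPKM in the 3 labelled ones. Eif2s3y, also Y-linked, was at 34.1 and 35.1 FPKM in normal cells and at 16.3, 22.6 and 4.58 FPKM in labelled cells, and Uty at 3.25 and 3.74 FPKM and at 0.00973, 0.0113 and 0.369 FPKM. The 6 embryonic stem cell markers summed to between 1012 and 1983 FPKM in the 5 libraries and none was at 0, while the 9 endoderm markers summed to at most 5.34 FPKM in the first 4 libraries and to 119 FPKM at 40 days. Over the 5 libraries the summed primed epiblast markers ranged from 22.1 to 215 FPKM, neural from 6.99 to 54.2 FPKM, mesoderm and muscle from 1.67 to 4.62 FPKM, and fibroblast and feeder from 113 to 263 FPKM. Within the neural sum, Tubb3 alone ranged from a listed 0 to 48.4 FPKM. The fibroblast and feeder sum lay mostly in Vim, Lgals1, Ccn1 and Ccn2, while Col1a1 and Col1a2 were at most 0.195 and 0.139 FPKM. With 1 library per group no ratio between 2 libraries has a replicate check. Ratios are of (FPKM + 1) on the log2 scale unless given as a fold, which is the plain ratio of FPKM.

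The levels of BAF genes spread widely, also within the core and between paralogues. Actl6a, the actin-like subunit of proliferating cells, had a mean of 92.6 FPKM over the 5 libraries (chromosome 3, 32607468 to 32625890, plus strand, mm9). Next came the core subunits Smarcd1 at 74.6 FPKM, Smarcb1 at 69.7 FPKM and Smarcc1 at 52.3 FPKM, then the PBAF subunits Phf10 at 41.4 FPKM and Brd7 at 36.9 FPKM. Dpf2, a reader of acylated histone tails in canonical BAF, had a mean of 30.4 FPKM, Smarca4 19.9 FPKM and Smarcd2 19.6 FPKM. The means of Arid2 (12.2 FPKM), Pbrm1 (10.8 FPKM) and Brd9 (10.5 FPKM) were close to each other. Dpf1 (6.01 FPKM), Smarce1 (4.41 FPKM) and Smarcd3 (2.94 FPKM) closed the list of BAF genes with a mean of at least 1 FPKM.

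**Figure D1:**
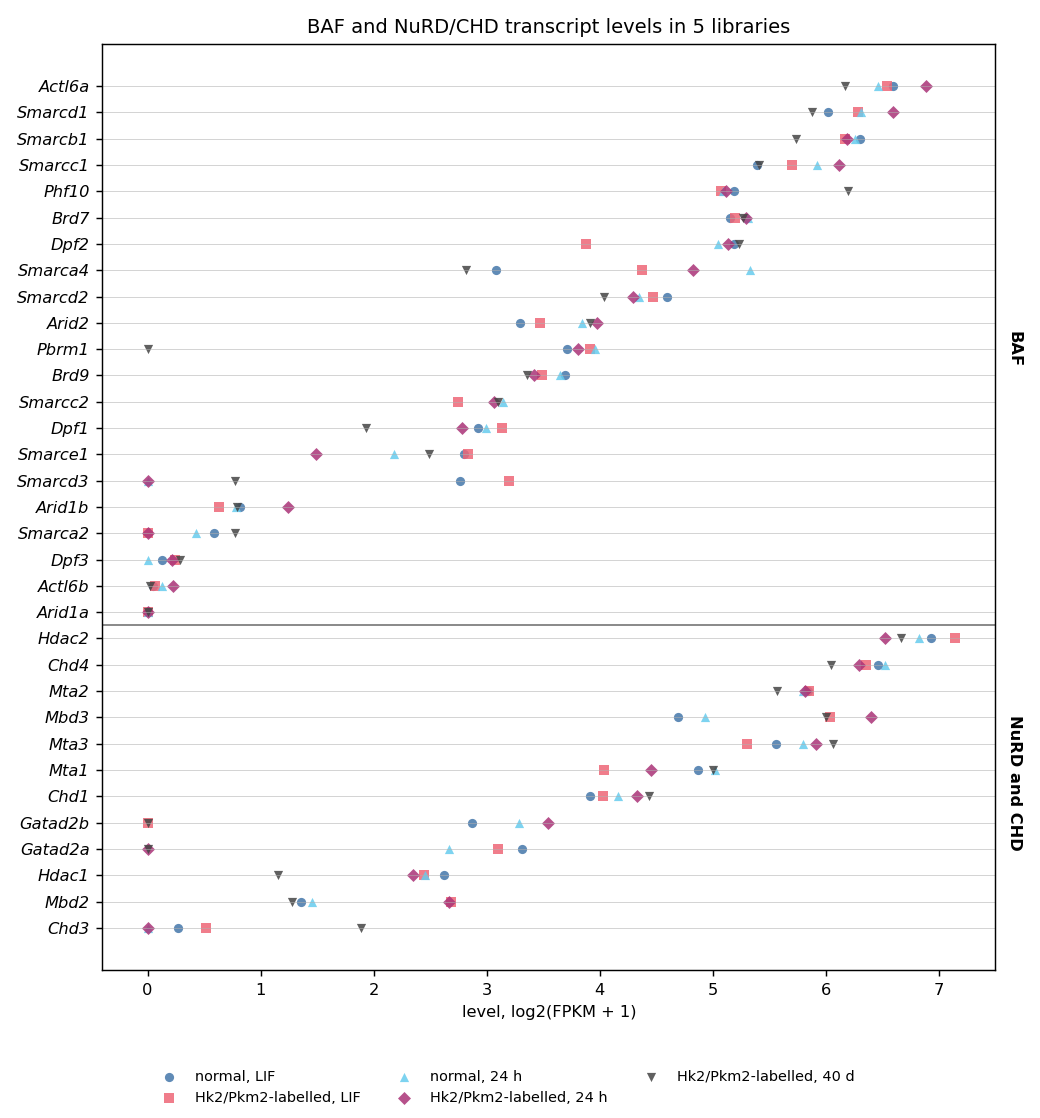
Level of each of the 33 matched members, as log2(FPKM + 1) on the horizontal axis, in the 5 libraries, 1 symbol per library. BAF members stand above the line and NuRD and CHD members below it, each ordered by mean; Smarcc2 has no value in normal cells with LIF, and Arid1a lies at 0 in all 5 libraries.

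Smarca2 had 0.500 FPKM in normal cells with LIF, 0.349 FPKM in those after 24 hours and 0.708 FPKM at 40 days, and was listed at 0 in the other 2 libraries. Actl6b, the neuronal partner of Actl6a, ranged from 0.0159 to 0.172 FPKM, and Dpf3 from a listed 0 to 0.221 FPKM. Arid1b, a canonical BAF subunit, ranged from 0.551 to 1.36 FPKM. These genes had a mean under 1 FPKM and were not taken into the ratios. Arid1a, the DNA-binding subunit of canonical BAF, was listed at 0 in all 5 libraries; it has 1 transcript in the table (NM_001080819). A listed 0 can be a failed estimate, so nothing is read from it about the level of Arid1a.

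Smarcc1 exceeded its paralogue Smarcc2 in each library that had both values. Smarcc2 was at 5.72 FPKM in labelled cells with LIF, 7.86 FPKM in normal and 7.34 FPKM in labelled cells after 24 hours and 7.56 FPKM at 40 days, and in normal cells with LIF a hyphen stood in place of 1 of its transcripts. Smarcc1 held 90.0%, 88.3%, 90.3% and 84.6% of their sum in these libraries, and Smarcc2 the rest.

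In NuRD, Hdac2 was the most abundant member, with 121 FPKM in normal and 140 FPKM in labelled cells with LIF, 112 and 91.2 FPKM after 24 hours, and 100.4 FPKM at 40 days. Its paralogue Hdac1 ranged from 1.22 to 5.17 FPKM, 1.2% to 4.3% of their sum. The annotation holds a pseudogene of Hdac1, and the sources used here do not say how fragments that fit both were assigned, which makes that low level uncertain. The same holds for Smarce1, which also has a pseudogene. Chd4, the main NuRD ATPase of these cells, was at 64.9 to 91.2 FPKM and had 96.0% or more of its sum with Chd3. Chd3 was at 0.206 and 0.427 FPKM with LIF, listed at 0 after 24 hours, and at 2.71 FPKM at 40 days. The scaffold Mta2 (mean 54.0 FPKM), Mbd3 (53.1 FPKM) and Mta3 (52.9 FPKM) had nearly equal means, followed by Mta1 (25.4 FPKM). The bridging subunits Gatad2b (5.14 FPKM) and Gatad2a (4.38 FPKM) were both listed at 0 in 2 libraries. Chd1, a remodeller outside NuRD that binds H3K4-methylated histone tails, ranged from 14.1 to 20.7 FPKM.

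**Figure D2:**
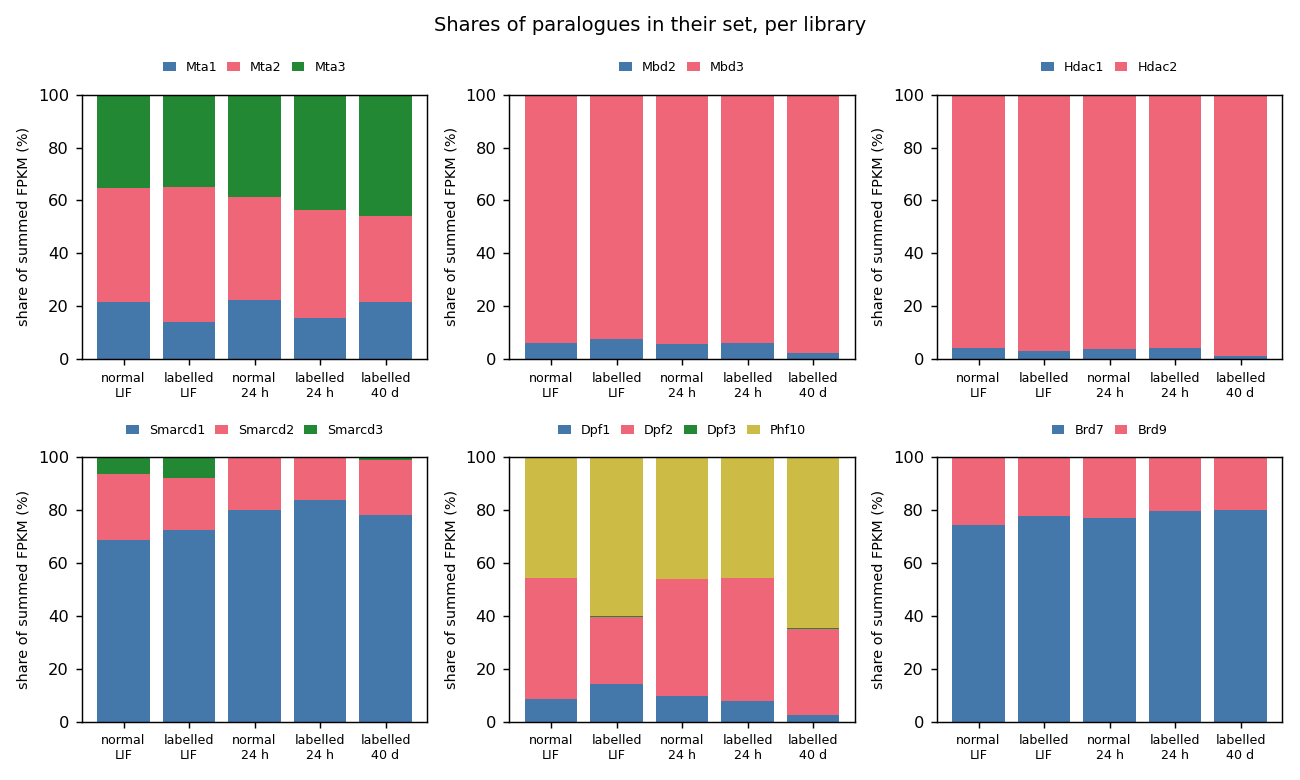
Share of each paralogue in the summed FPKM of its set, in percent, for 6 sets and 5 libraries. Hdac2 and Mbd3 make up at least 92% of their sets in every library, while the shares of the MTA, SMARCD and DPF/PHF10 sets differ between libraries.

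After the filter 26 members remained, 15 of BAF and 11 of NuRD and CHD. Of these, 22 were above 0 in every library, and Smarcd3, Pbrm1, Gatad2a and Gatad2b were listed at 0 in at least 1. The highest library was under 2-fold above the lowest for 13 of the 26 members and for 50.6% of the 9590 genes tested, and under 1.5-fold for 23.1% of members and 26.7% of genes. Brd7 was the steadiest member, at 34.5 to 38.7 FPKM, followed by Mta2 at 46.6 to 56.9 FPKM and Brd9 at 9.25 to 11.9 FPKM.

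Among the members, the largest difference between labelled and normal cells that recurred in both cultures lay in the 2 MBD genes, both higher in labelled cells. With LIF, Mbd3 was at 24.9 FPKM in normal and 64.6 FPKM in labelled cells, after 24 hours at 29.6 and 83.3 FPKM, and at 63.1 FPKM in labelled cells at 40 days. All 3 labelled libraries were above both normal ones, 2.59-fold with LIF and 2.82-fold after 24 hours. With LIF, Mbd2 was at 1.56 FPKM in normal and 5.41 FPKM in labelled cells, after 24 hours at 1.73 and 5.37 FPKM, 3.46-fold and 3.09-fold higher in labelled cells. At 40 days Mbd2 was at 1.43 FPKM, below both normal libraries, so the 2 MBD genes parted there. Whether RNA per cell or the mix of cells differs behind such a value cannot be told apart in bulk RNA. The protein-coding Mbd3 (mm9 chromosome 10, 79855284 to 79862295, minus strand) has 1 transcript in the table (NM_013595).

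The MTA scaffold Mta1 went the other way. Its level with LIF was 28.2 FPKM in normal and 15.4 FPKM in labelled cells, after 24 hours 31.5 and 21.0 FPKM, and 31.0 FPKM at 40 days. Both labelled libraries of the 2 matched cultures were below both normal ones, at 0.55-fold and 0.67-fold, and the 40 day library was within the normal range. Mta2 did not follow, with 1.01-fold in both cultures, and Mta3 was at 0.83-fold and 1.08-fold. The share of Mta1 in the MTA sum was accordingly 21.6% and 22.4% in normal cells, 13.9% and 15.5% in labelled cells, and 21.6% at 40 days. The gene spans mm9 chromosome 12, 114336489 to 114375417, plus strand.

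**Figure D3:**
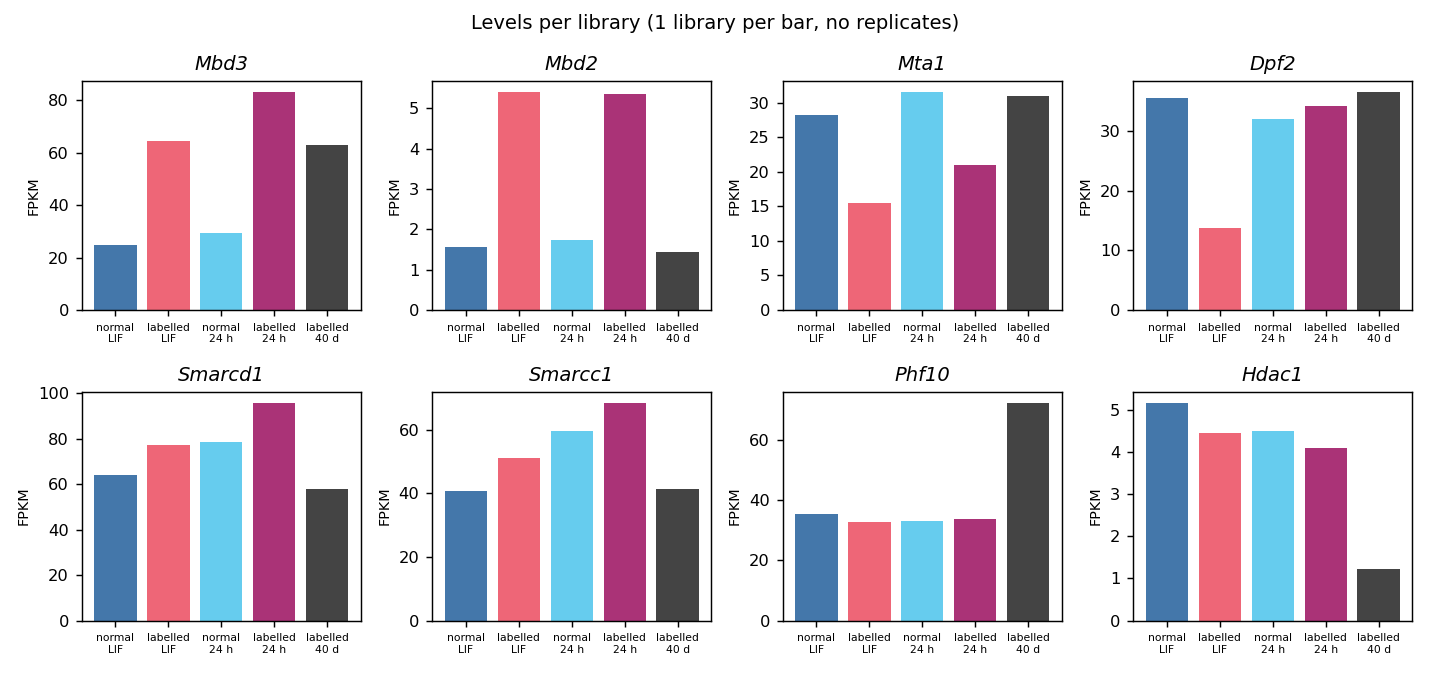
FPKM of 8 members in each library, 1 bar per library from 0, with a separate vertical scale per gene. Mbd3 and Mbd2 are higher and Mta1 lower in labelled than in normal cells of the same culture, Dpf2 is low in 1 library, and Phf10 and Hdac1 stand apart at 40 days.

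The sequences before the start sites of Mbd3 and Mta1 are shown because these NuRD genes differed between labelled and normal cells in opposite directions in both cultures. Each is the 250 bases before the start site in RefSeq (GRCm38.p6), written 5′ to 3′ on the gene's strand, at chr10:80399532-80399781 (minus) for Mbd3 and chr12:113098028-113098277 (plus) for Mta1. Capitals mark matches on either strand to CCAAT or to GGGCGG, which share no letters in these windows.
Mbd3: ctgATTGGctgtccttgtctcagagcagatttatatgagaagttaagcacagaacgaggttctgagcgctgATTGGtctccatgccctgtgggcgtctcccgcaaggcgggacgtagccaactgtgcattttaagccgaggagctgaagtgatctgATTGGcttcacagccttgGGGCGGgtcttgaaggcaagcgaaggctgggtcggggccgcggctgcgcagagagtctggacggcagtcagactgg
Mta1: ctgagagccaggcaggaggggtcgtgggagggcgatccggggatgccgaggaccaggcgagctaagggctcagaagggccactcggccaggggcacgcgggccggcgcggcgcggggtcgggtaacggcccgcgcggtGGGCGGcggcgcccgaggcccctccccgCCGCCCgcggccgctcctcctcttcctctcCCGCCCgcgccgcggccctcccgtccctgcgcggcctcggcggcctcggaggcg
The Mbd3 window holds 3 CCAAT and 1 GGGCGG matches, with a GC content of 57.6% and 14 CpG. The Mta1 window holds no CCAAT and 3 GGGCGG matches, with a GC content of 80.8% and 39 CpG. RefSeq windows were found for 26 members, 31 windows in all, with a median GC content of 67.2%. These are not the 26 members past the filter: they include 6 members outside it (Actl6b, Arid1a, Arid1b, Dpf3, Smarca2, Smarcc2), and 6 members past it have no window here (Arid2, Smarce1, Chd1, Mbd2, Mta3, Hdac1). The median GC content was 60.4% for the 9802 windows of genes tested and 52.4% for all windows. CCAAT was in 29% of the members' windows and in 36.8% of those of genes tested (33.8% of all 32851 windows), with 3 or more matches in 5.03% of the windows of genes tested. GGGCGG was in 87.1% of the members' windows and in 60.8% of those of genes tested (32.7% of all). A match is a run of letters and was not tied to the levels.

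With LIF, 3 of 26 members were at least 2-fold higher in labelled cells (Smarca4, Mbd2, Mbd3) and 2 were lower (Dpf2, Gatad2b), against 4.11% and 5.32% of 9590 genes. At 1.5-fold in either direction the count was 6 of 26, against 20.1% of genes. Dpf2 was at 13.7 FPKM in labelled cells with LIF and at 35.5, 32.0, 34.1 and 36.6 FPKM in normal cells with LIF, normal and labelled cells after 24 hours and labelled cells at 40 days. The low value was in that 1 library, and the other labelled libraries lay near the normal ones. Among remodellers outside the set, Smarca5, the ISWI ATPase, was low in the same library, with 4.02 FPKM against 18.2 to 28.6 FPKM in the other 4. Gatad2b was listed at 0 in labelled cells with LIF and stood at 6.31 FPKM in normal cells.

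After 24 hours, 2 of 26 members were at least 2-fold higher in labelled cells, again Mbd2 and Mbd3, against 4.19% of genes. Gatad2a was at least 2-fold lower, listed at 0 in labelled cells and at 5.35 FPKM in normal cells, against 5.18% of genes. At 1.5-fold the count was 4 of 26, against 20.2% of genes. No BAF member differed 2-fold in this comparison, and Smarce1, with 3.53 FPKM in normal and 1.80 FPKM in labelled cells, had the lowest log2 ratio among them, -0.69.

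Across both cultures, limma fitted to 4 libraries gave a cell type difference of 1.40 ± 0.083 for Mbd3, 1.27 ± 0.16 for Mbd2 and -0.70 ± 0.12 for Mta1 (log2, SE). The limma adjusted p was 0.512 for each of the 3. Smarcd1, higher in labelled cells by 0.28 ± 0.068, had a limma adjusted p of 0.520. No member and no gene passed an adjusted p of 0.05, a background of 0%. The lowest limma adjusted p over all 9590 genes was 0.512. The fit left 1 residual degree of freedom, so the absence of calls does not show that a member was alike in both cell types. At an unadjusted p under 0.05 limma had 4 of 26 members (these 4 genes), against 9.57% of genes. Such a p-value reflects only how alike the 2 cultures were, since no label says that the libraries of a cell type came from separate cell lines. The 3 Y-linked transcripts given above were lower in the labelled libraries, Eif2s3y to a smaller degree than Ddx3y and Uty, and their part in these differences was not tested.

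Withdrawal here means the 24 hours without LIF after which LIF was added again. After it, 4 of 26 members differed 1.5-fold from their level with LIF in normal cells, against 20.6% of genes, and 7 of 26 in labelled cells, against 23.4%. In the same comparisons 4 of the 6 embryonic stem cell markers were at least 2-fold lower in both cell types, Klf4 by a log2 ratio of -3.06 and -3.07, and none was at 0. Of the 5 primed epiblast markers, 3 were at least 2-fold higher in normal and 5 in labelled cells. The part of these markers in the members' values was not tested. Arid2, Smarcc1 and Smarcd1 of BAF were among the members higher after withdrawal in both cell types. Arid2, the DNA-binding subunit of PBAF, was at 8.79 and 13.4 FPKM in normal cells and at 10.1 and 14.8 FPKM in labelled cells, in the order LIF and 24 hours. Smarcc1 was at 40.9 and 59.6 FPKM in normal and at 51.2 and 68.6 FPKM in labelled cells. Smarcd1 was at 63.8 and 78.5 FPKM in normal and at 77.1 and 95.9 FPKM in labelled cells. In these 3 genes each library after withdrawal was above the LIF library of the same cell type, by 1.52-fold and 1.47-fold for Arid2, 1.46-fold and 1.34-fold for Smarcc1, and 1.23-fold and 1.24-fold for Smarcd1.

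Smarce1 and Smarcd3 of BAF were among the members lower after withdrawal in both cell types. In normal and labelled cells, Smarcd2 was at 0.83-fold and 0.87-fold, Hdac2 at 0.93-fold and 0.65-fold, and Hdac1 at 0.87-fold and 0.92-fold. Smarce1, a core subunit with an HMG box, was at 5.94 and 3.53 FPKM in normal cells and at 6.15 and 1.80 FPKM in labelled cells. Smarcd3, a SMARCD form known from heart and muscle, was at 5.80 FPKM in normal and 8.19 FPKM in labelled cells with LIF and had a listed 0 in both 24 hour libraries, and it was at 0.712 FPKM at 40 days. Its gene overlaps the protein-coding Chpf2, which was at 0.629 to 3.75 FPKM, and reads of the 2 genes were not told apart by strand.

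In normal cells 1 of 26 members was at least 2-fold higher after withdrawal (Smarca4) and 1 lower (Smarcd3), against 4.62% and 5.51% of genes. In labelled cells 2 were higher (Dpf2, Gatad2b) and 3 lower (Smarcd3, Smarce1, Gatad2a), against 5.79% and 6.07%. The higher Dpf2 and Gatad2b in labelled cells rest on the low or 0 value in their LIF library, which also enters the comparison of cell types with LIF. Over both cell types limma gave a withdrawal difference of 0.53 ± 0.11 for Arid2 (limma adjusted p = 0.359), 0.47 ± 0.08 for Smarcc1 (limma adjusted p = 0.345) and 0.30 ± 0.068 for Smarcd1 (limma adjusted p = 0.381), on the log2 scale with SE. For Smarcd3 (limma adjusted p = 0.324) the size of the difference is set by the pseudocount, since both 24 hour libraries are listed at 0. Its log2 ratios of -2.77 in normal and -3.20 in labelled cells became -5.88 and -6.37 with a pseudocount of 0.1. None of the 26 members and 0% of genes passed an adjusted p of 0.05. The lowest limma adjusted p over all genes was 0.324, so the absence of calls says little about any member. At an unadjusted p under 0.05 limma had 5 of 26 members (Arid2, Mbd3, Smarcc1, Smarcd1 and Smarcd3), against 12% of genes.

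At 40 days 18 of 26 members were below labelled cells with LIF, as were 4292 of 9590 genes. Phf10, a PBAF subunit with paired PHD fingers, was above it. Its level was 35.5 and 33.0 FPKM in normal cells, 32.6 and 33.7 FPKM in labelled cells, and 72.4 FPKM at 40 days, 2.22-fold above labelled cells with LIF. The other 4 libraries lay within 3 FPKM of each other. Phf10 (mm9 chromosome 17, 15081999 to 15129820, minus strand) overlaps the protein-coding 1600012H06Rik, which was at 9.19 FPKM in labelled cells with LIF and 4.05 FPKM at 40 days. In the set of Dpf1, Dpf2, Dpf3 and Phf10 the share of Phf10 was 64.6% at 40 days, 60.0% in labelled cells with LIF, where Dpf2 was low, and 45.6% to 45.9% in the other 3 libraries.

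The 250 bases before the start site of Phf10 are shown because it was the member that stood highest above the other 4 libraries at 40 days without a listed 0. They are from RefSeq (GRCm38.p6), chr17:14961261-14961510 on the minus strand, with GGGCGG matches on either strand in capitals, some of which overlap; CCAAT has no match in this window.
Phf10: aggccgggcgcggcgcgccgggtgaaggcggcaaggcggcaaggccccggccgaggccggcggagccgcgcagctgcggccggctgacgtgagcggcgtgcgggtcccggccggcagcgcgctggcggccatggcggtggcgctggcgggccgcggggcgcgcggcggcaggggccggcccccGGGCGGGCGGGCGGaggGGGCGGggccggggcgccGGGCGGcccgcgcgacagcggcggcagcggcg
The window has a GC content of 88.4%, 51 CpG and 5 GGGCGG matches, while 3 or more such matches were in 17.61% of the windows of genes tested.

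At the other end, Hdac1 was at 4.09 to 5.17 FPKM in the first 4 libraries and at 1.22 FPKM at 40 days, 0.28-fold of labelled cells with LIF. Dpf1, a neuronal DPF form, was at 5.89 to 7.81 FPKM and then at 2.82 FPKM. Mbd2 was at 5.41 FPKM in labelled cells with LIF and 1.43 FPKM at 40 days, 0.26-fold, while Mbd3 was 0.98-fold. Of the core BAF subunits, Smarcb1 was at 0.74-fold, Smarcd1 at 0.75-fold, Smarcd2 at 0.73-fold, Smarce1 at 0.75-fold and Smarcc1 at 0.81-fold of labelled cells with LIF. Smarcc2 was at 1.32-fold, and Smarcd3 was at 8.19 and 0.712 FPKM in the 2 libraries. The actin-like Actl6a was at 0.77-fold. Chd4 was at 0.80-fold, Mta2 at 0.82-fold and Hdac2 at 0.72-fold. Higher at 40 days were Mta1 (2.01-fold), Mta3 (1.71-fold), Arid2 (1.40-fold) and Chd1 (1.34-fold). For Mta1 the log2 ratio of (FPKM + 1) was 0.96, just under the 2-fold limit. Pbrm1, the polybromo subunit of PBAF, was at 12.1 to 14.5 FPKM in the first 4 libraries and listed at 0 at 40 days.

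Against labelled cells with LIF, 2 of 26 members were at least 2-fold higher at 40 days (Dpf2, Phf10) and 7 lower (Smarca4, Smarcd3, Pbrm1, Dpf1, Mbd2, Hdac1, Gatad2a), against 14% and 8.31% of genes. At 1.5-fold the count was 11 of 26, against 40.2%. Against labelled cells after 24 hours, 2 were higher (Smarce1, Phf10) and 5 lower (Smarca4, Pbrm1, Mbd2, Hdac1, Gatad2b), against 12.1% and 5.78% of genes, and 12 of 26 differed 1.5-fold against 35.5%. These comparisons share the 40 day library. The counts of Smarcd3, Pbrm1, Gatad2a and Gatad2b here and above rest on libraries listed at 0, or near 0 for Smarcd3 at 40 days, so no plain fold is given for them and their log2 ratios depend on the pseudocount. All genes had 1343 higher and 797 lower calls against LIF, 62.8% higher, which became 51.8% after quantile normalization, and 67.6% higher against 24 hours, which became 53.0%. Among members 22.2% of 9 calls and 28.6% of 7 calls were higher, and 22.2% and 14.3% after quantile normalization. Such shares of few calls are a description only. Among members above 0 in every library, 2 were higher and 4 lower against LIF, and 2 and 3 against 24 hours. All genes above 0 in every library had 1079 higher and 598 lower against LIF, and 908 and 371 against 24 hours. Markers of other cells moved with these differences: 6 of the 9 endoderm markers were higher by more than 1.4 on the log2 scale against LIF, among them Dab2 at 52.0 FPKM and Gata4 at 25.6 FPKM, while Afp was at 0 throughout and Sox17 at 0 in this library. The 6 trophoblast markers summed to 9.06 to 28.9 FPKM in the first 4 libraries and 78.7 FPKM at 40 days. Most of the latter sum lay in the keratins Krt18 (54.2 FPKM) and Krt8 (21.6 FPKM). Tfap2c was lower, with 4.79 FPKM in labelled cells with LIF and 1.76 FPKM at 40 days. Cdx2, Elf5 and Hand1 stayed under 1 FPKM in every library. Of the 6 embryonic stem cell markers, 5 were at least 2-fold lower against LIF. Nanog was at 183 FPKM in labelled cells with LIF and 29.6 FPKM at 40 days, while Pou5f1 was at 1084 and 807 FPKM. All 5 primed epiblast markers were at least 2-fold higher against LIF, with sums of 22.1 and 176 FPKM. The part of all these markers in the members' differences was not tested.

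**Figure D4:**
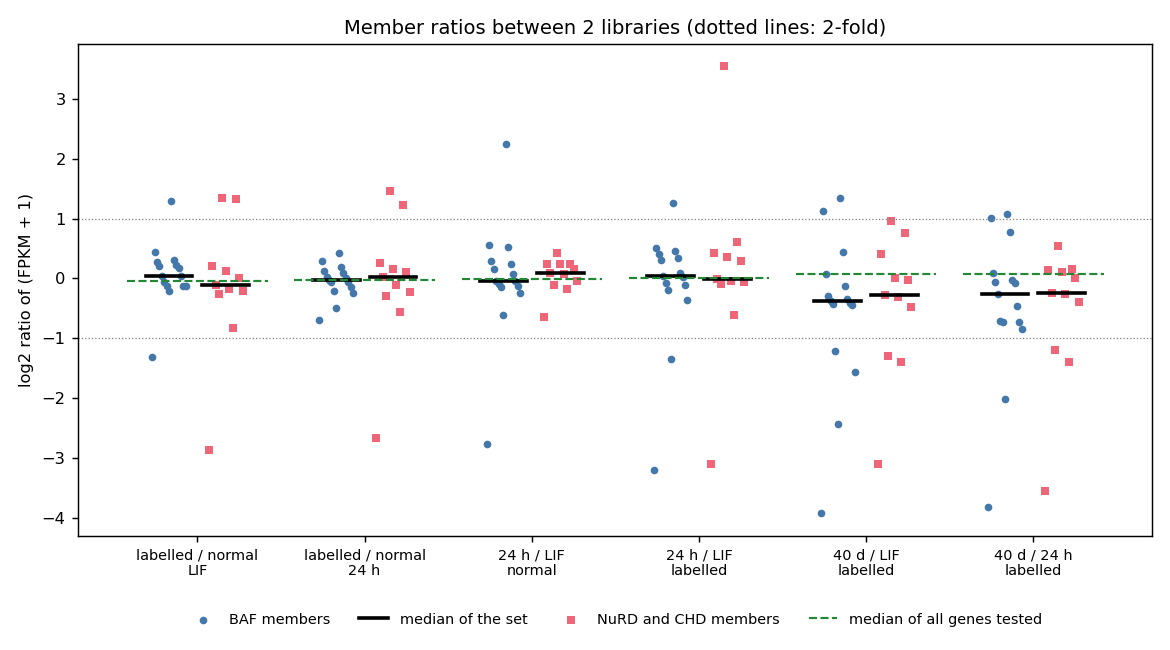
Log2 ratio of (FPKM + 1) for the 15 BAF and 11 NuRD and CHD members past the filter in the 6 comparisons of 2 libraries, 1 point per gene, with the median of each set and of all 9590 genes tested. In the first 4 comparisons the set medians lie within 0.11 of 0, and in both 40 day comparisons they lie below 0.

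The medians of BAF and of NuRD and CHD members lay within 0.16 of each other in each of the 6 comparisons, which is a description with no test. With LIF the median log2 ratio between cell types was 0.049 for BAF and -0.10 for NuRD and CHD members (-0.044 for all genes), and after 24 hours -0.022 and 0.018 (-0.021). For withdrawal it was -0.040 and 0.094 in normal cells (-0.0055) and 0.045 and -0.010 in labelled cells (0.0042). At 40 days it was -0.37 and -0.28 against LIF (0.076) and -0.25 and -0.25 against 24 hours (0.072). Between cell types 2 of 15 BAF and 3 of 11 NuRD and CHD members differed 2-fold with LIF, against 9.43% of all genes tested, and 0 and 3 after 24 hours, against 9.37%. At 40 days against LIF, 11 of 15 BAF and 7 of 11 NuRD and CHD members were below 0, and the same counts against 24 hours were 11 and 6. Of all 9590 genes tested, 4292 were below 0 in each of these comparisons. In summed FPKM, the 15 BAF members came to 465 and 471 in normal and labelled cells with LIF, 513 and 551 after 24 hours, and 422 at 40 days. The 11 NuRD and CHD members came to 399.6 and 429, 411 and 427, and 395. No test was made of these sums.

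Smarca4, the main ATPase of BAF in these cells (mm9 chromosome 9, 21420613 to 21508674, plus strand), could not be followed with certainty. Its 3 transcripts summed to 7.48 FPKM in normal and 19.7 FPKM in labelled cells with LIF, 39.1 and 27.4 FPKM after 24 hours, and 6.04 FPKM at 40 days. The value sat on different transcripts: NM_011417 was at 7.48, 12.6, 24.0 and 6.04 FPKM in normal and labelled cells with LIF, normal cells after 24 hours and the 40 day library, but listed at 0 in labelled cells after 24 hours. There the other transcripts, NM_001174078 and NM_001174079, were at 17.4 and 10.02 FPKM. With the transcript of highest mean alone, the log2 ratio of 40 days to 24 hours was 2.82 in place of -2.01. Gatad2a showed the same pattern, with 8.96 FPKM on NM_145596 in normal cells with LIF, 7.57 and 5.35 FPKM on NM_001113346 in the next 2 libraries, and both at 0 in the last 2. By contrast, the 2 transcripts of Smarcb1 kept 55.99 and 21.8 FPKM in normal cells with LIF and 37.6 and 14.8 FPKM at 40 days. 

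**Figure D5:**
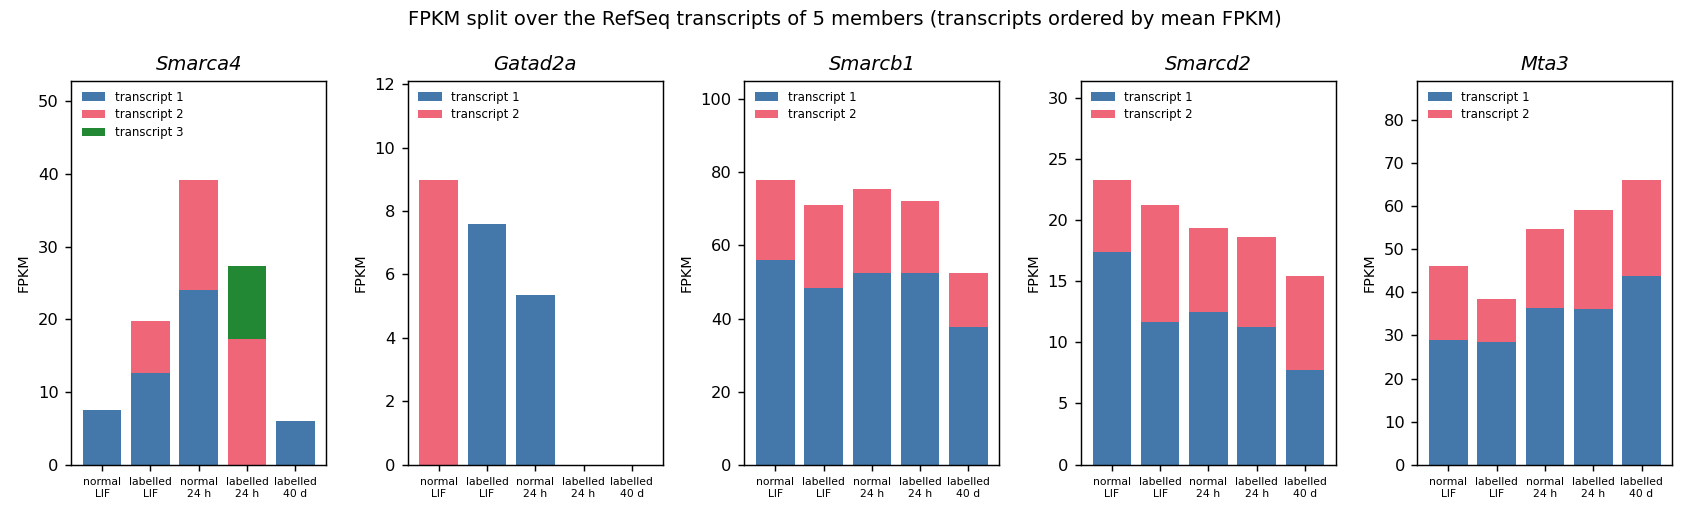
FPKM of the RefSeq transcripts of 5 members, stacked, 1 bar per library, with transcripts at 0 in every library left out. In Smarca4 and Gatad2a a transcript present in 1 library is listed at 0 in another, while both transcripts of Smarcb1, Smarcd2 and Mta3 are present in all 5.

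Other remodeller genes, 59 from 6 lists, gave 47 past the filter. With LIF 1 was at least 2-fold higher in labelled cells and 5 lower, against 4.11% and 5.32% of genes, and after 24 hours 1 was higher and 4 lower, against 4.19% and 5.18%. For withdrawal the counts were 4 and 3 in normal cells, against 4.62% and 5.51%, and 4 and 4 in labelled cells, against 5.79% and 6.07%. At 40 days 5 were higher and 6 lower against LIF, where 14% and 8.31% of genes were, and 5 and 9 against 24 hours, where 12.1% and 5.78% were. Among other BAF genes, Ss18 was at 7.65 FPKM in labelled cells with LIF and 16.5 FPKM at 40 days, and Bcl7b at 11.1 and 23.1 FPKM. Actb, the actin that BAF also holds, was at 969 and 588 FPKM in these libraries. Kdm1a, a histone demethylase that joins NuRD, was at 61.3 to 65.5 FPKM in the first 4 libraries and 28.6 FPKM at 40 days. Hells, a remodeller known for its role in DNA methylation, was at 71.0 to 107 FPKM and then at 23.4 FPKM. Ruvbl1, an ATPase of the INO80 and TIP60 complexes, was at 10.5 to 14.6 FPKM and then at 3.40 FPKM. Other genes were higher at 40 days. In labelled cells with LIF, after 24 hours and at 40 days, Cecr2 of the ISWI list was at 1.62, 8.19 and 17.7 FPKM. In the same order, Zfp219, of the other NuRD genes, was at 23.7, 10.5 and 38.3 FPKM, and Chd9 at 9.73, 3.65 and 19.3 FPKM. Sall4, a pluripotency factor that binds NuRD, was at 38.9 and 36.8 FPKM with LIF, 61.1 and 30.8 FPKM after 24 hours, and 45.6 FPKM at 40 days. Rbbp7, a histone-binding subunit shared by NuRD and Polycomb complexes, was at 99.5 to 134 FPKM.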

How the data were processed

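RNA of 5 E14 libraries, 1 per group, was prepared with a TruSeq RNA v2 kit, per the labels' protocols, which does not mark strand. The authors deposited FPKM per RefSeq transcript, normalized for length and depth. TopHat2 2.0.7, Cufflinks 2.0.2 and the mm9 build are named, per the submitters' processing notes. The sources used here do not give other settings or the meaning of the hyphens in 610 cells.

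Of 28698 transcripts, 28066 were paired with symbols by accession in a RefSeq table (GRCm38.p6), and FPKM was summed per gene. The 337 genes with a hyphen were left out, among them Smarcc2. Genes with a mean of at least 1 FPKM were tested, 9590 in all, of which 749 are listed at 0 in a library (7.81%; 4 of 26 members, 15.4%). Ratios used log2(FPKM + 1). Limma 3.58.1 (R 4.3.3, eBayes with trend, Benjamini-Hochberg over all genes) was fitted to 4 libraries with cell type and culture, leaving 1 residual degree of freedom, the interaction with library noise. The code was tested on simulated data. Depth was estimated from the most frequent spacing of low values in genes with 1 transcript, and is approximate. Coordinates are from GENCODE vM1 on mm9. Members and lists were chosen with earlier results of these data known. All members are named, with up to 3 genes per other list by largest ratio among those above 0 in every library; Rbbp7 was chosen after its values were seen. Alternatives were the pseudocount, the filter, quantile normalization, leaving out genes with a 0, the top transcript alone, a 1.5-fold limit and eBayes without trend.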

Additional observations from a re-analysis of the deposited data

Results flagged for a closer look

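In 3 members the difference between labelled and normal cells had opposite signs in the 2 cultures, with at least 1 of the 2 past 2-fold; with 1 library per group this difference was not tested. Smarca4 had a log2 ratio of 1.29 with LIF and -0.50 after 24 hours; with its top transcript alone these were 0.68, no longer past 2-fold, and -4.64. Dpf2 had -1.31 with LIF and 0.092 after 24 hours, which also gives its withdrawal ratios of -0.15 in normal and 1.25 in labelled cells. Gatad2b had -2.87 with LIF, where it was listed at 0 in labelled cells, and 0.25 after 24 hours. The first of these is set by the pseudocount and was -6.00 with a pseudocount of 0.1.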

How the results depend on the processing

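No paired analysis was possible because each group has 1 library and the labels carry no replicate numbers; for the same reason no library could be left out. A median counted as moved past 0.2 on the log2 scale and a share past 10 percentage points. The alternatives for medians were the pseudocount of 0.1, no filter, quantile normalization, leaving out genes with a 0 and the top transcript alone. Under them the BAF and NuRD medians of the 6 comparisons moved by less than 0.2. That limit exceeds each main median between cell types and for withdrawal. The NuRD and CHD median between cell types with LIF ranged from -0.11 to 0.0096. The BAF median at 40 days against 24 hours ranged from -0.35 to -0.067. Quantile normalization shifted the median of all genes at 40 days against LIF from 0.076 to -0.035. It left 1 member at least 2-fold higher at 40 days against 24 hours. Without genes listed at 0, members at least 2-fold lower numbered 1 between cell types with LIF, 0 after 24 hours, 0 and 1 for withdrawal in normal and labelled cells, 4 at 40 days against LIF and 3 against 24 hours, and 1 was higher for withdrawal in labelled cells. With the top transcript alone, 2 members were lower between cell types after 24 hours and 2 higher for withdrawal in normal cells. With it the ratio of Smarca4 at 40 days against 24 hours was 2.82. The shares were 32.1% for Mta3 in labelled cells after 24 hours, and 0% for Gatad2a and 100% for Gatad2b in normal cells with LIF. At 40 days they were 96.3% for Smarcc1 and 3.68% for Smarcc2. For Smarcc2 the transcript with a hyphen could not be chosen, as it has no mean over all libraries. At 40 days that transcript was at 5.98 FPKM and the one used at 1.58 FPKM, so this share leaves out most of Smarcc2. At 1.5-fold, 2 were lower between cell types after 24 hours, 3 lower for withdrawal in normal cells, 4 higher at 40 days against LIF and 9 lower against 24 hours. Limma called no member under any of its 5 alternatives, but with 1 residual degree of freedom this says little. Gene ratios were taken over 6 settings, the main one and the alternatives named for the medians. Mbd3 ranged from 1.34 to 1.44 with LIF and from 1.46 to 1.49 after 24 hours. Phf10 ranged from 1.13 to 1.15 at 40 days against LIF. Mbd3 and Phf10 have 1 transcript and no listed 0, so only the pseudocount and quantile normalization could change their ratios.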
